A study of Mus musculus with 18 samples.

Results

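PROMPTs, the promoter upstream transcripts that run antisense to a gene from just ahead of its start, were examined here for the zinc finger genes of murine ES cells. A PROMPT was included when its gene symbol began with Zfp followed by a digit and also named a gene of the protein-coding gene table, with no limit on its level. This gave 348 of the 32253 PROMPTs measured (1.08%). A further 3 PROMPTs with such symbols (Zfp652os, Zfp813-ps and Zfp85os) were not in the gene table and were left out. The gene table held 400 genes with such symbols, so that 87.0% of them had a PROMPT, and the PROMPTs of the other 52 were not analysed here.

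The PROMPTs were measured by TT-seq, in which newly made RNA is labelled with 4-thiouridine, for 5 min in these cells, and then purified for sequencing. The E14 ES cells all carried osTIR1, and were either untagged or homozygous for a C-terminal mini-AID and triple V5 tag on SPT16, in 2 clones. Each of the 3 lines was treated for 24 h with 0.1% ethanol (EtOH) or with 3-indole acetic acid (IAA), which triggers degradation of tagged SPT16, giving 6 groups (Untagged, SPT16_AID_V5_Clone1 and SPT16_AID_V5_Clone2, each with EtOH or IAA) of 3 libraries. The study's methods call the repeats technical replicates, and each tagged line is 1 clone. The labels give the IAA dose as 500 nM, while the study's methods give it in µM.

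The level used throughout is the baseMean, the authors' mean of normalized counts over all 18 libraries, depleted and control together. It has no SD and no per-library values here, so every statement below describes levels in the pooled libraries and none compares conditions. A baseMean of 1 corresponds to about 1 normalized read per library, with a counting error of 23.6% if the reads of all libraries are summed, and at a baseMean of 100 this error is 2.36%. A level of 0 means that no read was counted in any library. Where reads can be placed uniquely, this allows a baseMean of up to 0.167 (3 reads over the 18 libraries). Reads without a unique alignment were not counted, so a 0 sets no such limit in a window that lacks unique sequence. These errors cover counting only. The ES cell genes Esrrb (64437), Nanog (14788), Pou5f1 (7585), Klf4 (6775) and Sox2 (5985) had high gene baseMean, while the 9 markers of other cell types ranged from 1.92 for Alb, a hepatocyte gene, to 245 for Sox1, a neural gene. Between them were the endoderm genes Sox7 (2.67), Sox17 (10.2) and Gata6 (99.0), the fibroblast genes Col1a2 (9.17), Col1a1 (25.3) and Thy1 (25.7), and Pax6 (35.8).

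Most mouse Zfp genes encode proteins with C2H2 zinc fingers, small folds held by a zinc ion that read DNA sequence. Many also carry a KRAB domain, which recruits the corepressor KAP1 and histone methylation to transposable elements and imprinted loci. Such genes lie in large clusters that grew by local duplication, so neighbours can share much of their sequence. PROMPTs arise because many mammalian promoters fire in both directions. The upstream transcript is usually short, ends at early polyadenylation signals and is degraded by the nuclear exosome, so it is poorly seen in steady-state RNA.

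The starts of the 4 PROMPTs with the highest levels are shown first, with those of 2 PROMPTs that were low relative to a strongly transcribed gene, because the results turn on such pairs. The latter have the lowest PROMPT to gene ratio, at a gene baseMean of 10000 or more, whose start lies within 100 bases of a RefSeq start and whose window holds no other gene on the PROMPT strand. Each sequence is 260 bases of GRCm38 on the PROMPT strand, 5′ to 3′, beginning at the base next to the GENCODE vM21 gene start and running away from the gene. CpG dinucleotides are in capitals. The positions are chr9:40192056-40192315 (- strand), chr3:9610086-9610345 (+ strand), chr4:34882961-34883220 (+ strand), chr11:80383019-80383278 (- strand), chr2:120563844-120564103 (+ strand) and chr5:145231455-145231714 (- strand), and no annotated exon of vM21 overlaps them.
Zfp202: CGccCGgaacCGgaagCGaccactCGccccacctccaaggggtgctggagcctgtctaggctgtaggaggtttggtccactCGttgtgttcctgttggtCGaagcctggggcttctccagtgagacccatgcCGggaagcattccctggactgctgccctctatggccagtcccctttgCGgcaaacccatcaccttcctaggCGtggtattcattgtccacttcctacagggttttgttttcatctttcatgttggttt
Zfp704: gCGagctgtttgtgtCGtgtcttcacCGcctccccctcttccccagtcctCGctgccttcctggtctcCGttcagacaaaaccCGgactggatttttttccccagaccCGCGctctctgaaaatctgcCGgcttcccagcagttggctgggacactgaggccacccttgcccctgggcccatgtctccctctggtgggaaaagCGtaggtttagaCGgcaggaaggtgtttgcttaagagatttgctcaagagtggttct
Zfp292: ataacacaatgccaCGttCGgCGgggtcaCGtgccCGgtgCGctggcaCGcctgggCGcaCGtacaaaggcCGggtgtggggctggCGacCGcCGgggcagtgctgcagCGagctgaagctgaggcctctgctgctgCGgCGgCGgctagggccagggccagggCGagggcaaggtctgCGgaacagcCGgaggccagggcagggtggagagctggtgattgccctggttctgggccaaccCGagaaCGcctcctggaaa
Zfp207: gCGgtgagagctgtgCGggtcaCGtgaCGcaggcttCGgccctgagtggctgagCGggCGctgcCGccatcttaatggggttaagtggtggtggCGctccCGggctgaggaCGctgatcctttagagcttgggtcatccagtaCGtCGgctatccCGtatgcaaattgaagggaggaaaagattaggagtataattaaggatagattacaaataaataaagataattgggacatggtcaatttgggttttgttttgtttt
Zfp106: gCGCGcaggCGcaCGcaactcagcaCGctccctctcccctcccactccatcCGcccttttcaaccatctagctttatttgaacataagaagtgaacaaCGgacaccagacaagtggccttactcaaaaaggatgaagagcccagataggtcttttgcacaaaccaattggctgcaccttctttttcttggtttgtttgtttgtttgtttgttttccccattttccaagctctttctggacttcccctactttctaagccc
Zfp655: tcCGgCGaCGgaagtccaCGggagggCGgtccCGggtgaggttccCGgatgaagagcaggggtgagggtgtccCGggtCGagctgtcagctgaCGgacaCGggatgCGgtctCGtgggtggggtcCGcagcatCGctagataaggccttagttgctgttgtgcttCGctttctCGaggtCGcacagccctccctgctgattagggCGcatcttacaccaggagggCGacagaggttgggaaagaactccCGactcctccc

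The PROMPT of Zfp655, at 1.45, was itself above the median of all zinc finger PROMPTs, and only its ratio to the gene was low. CpG content did not order these 6 starts by level. The Zfp292 start held 22 CpGs and the Zfp655 start 21, although their PROMPTs had baseMean of 143 and 1.45. The Zfp202 start, with the highest level of all, held 10 CpGs, against 7 at Zfp106. Searched on both strands, the ETS motif CCGGAAG occurred at bases 10 to 16 of the Zfp202 sequence. The YY1 motif AAGATGGCG occurred on the complementary strand at bases 65 to 73 of the Zfp207 sequence. Motif matches were also found at both low-ratio starts. The GC box GGGCGG occurred at bases 24 to 29 of the Zfp655 sequence and, on the complementary strand, 51 to 56 of Zfp106. The CCAAT box occurred at bases 163 to 167 of Zfp106. On the complementary strand it occurred at 166 to 170 of Zfp106 and 225 to 229 of Zfp207. The polyadenylation signal AATAAA occurred on the PROMPT strand at bases 211 to 216 and, overlapping it, 215 to 220 of the Zfp207 sequence, and at no other place on that strand in the sequences shown.

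Most zinc finger PROMPTs were detected, and most were weak. Reads were counted for 322 of the 348 (92.5%, 95% exact binomial interval 89.2 to 95.1%), compared with 78.2% of the 17743 PROMPTs of other protein-coding genes. A level of 1 or more was seen for 171 (49.1%, interval 43.8 to 54.5%), compared with 42.6% of the others. A level of 10 or more was seen for 56 (16.1%) compared with 15.7%, and one of 100 or more for 4 (1.15%) compared with 1.04%. The zinc finger PROMPTs were thus more often detected, but their share at high levels was about that of other genes. Their median baseMean was 0.915 over all 348 (95% interval 0.710 to 1.17), with quartiles of 0.292 and 4.55. The intervals treat genes as independent, which clustered and duplicated genes are not, and no test between gene sets was made.

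**Figure D1:**
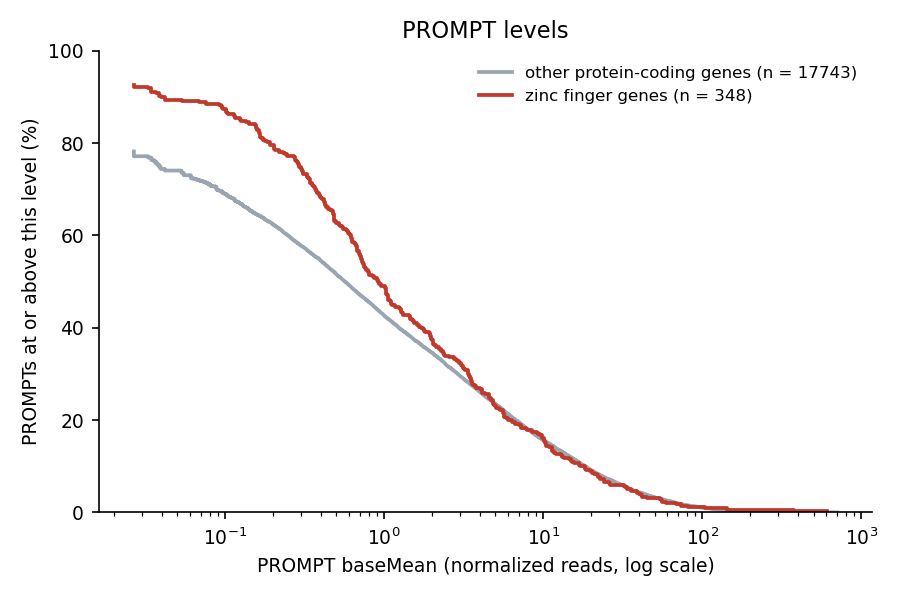
Share of PROMPTs (y axis, percent) at or above each baseMean (x axis, normalized reads, log scale) for 348 zinc finger genes (red) and 17743 other protein-coding genes (grey). The red line starts at 92.5% and the grey at 78.2%, and the lines lie close together from a baseMean of 10 upwards.

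A few PROMPTs carried most of the signal. The 348 baseMean values summed to 3076, of which Zfp202 held 19.7%, the 4 highest together 40.1% and the 56 at 10 or more 85.3%. The highest zinc finger PROMPT was that of Zfp202, a SCAN-type zinc finger gene on chromosome 9 from 40192316 to 40213604 (+ strand, ENSMUSG00000025602), at 607. Its gene had a baseMean of 809, so its PROMPT to gene ratio was 75.0%. The PROMPT of Zfp704 followed at 379, and its gene, on chromosome 3 from 9427020 to 9610085 (- strand), had the highest level of all 348 genes, at 42565. Zfp292, which encodes a large zinc finger protein, had a PROMPT of 143 and the second highest gene level, 32185. Zfp207, whose product binds microtubules and takes part in splicing, had a PROMPT of 104 beside a gene level of 15095.

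The other 8 of the 12 highest PROMPTs were far weaker than Zfp202. Zfp961 had a PROMPT baseMean of 81.3 and Zfp598, which encodes a ubiquitin ligase that senses collided ribosomes, had 72.9. Zfp865 had 68.5, although its gene was listed at 0. Gm44973, Ccdc106 and 4632433K11Rik overlap Zfp865 on its strand in the annotation, and the part of this overlap in the gene value was not tested. Zfp977 had a PROMPT of 59.1, Zfp873 of 55.4, Zfp619 of 54.5 and Zfp446 of 44.9. Zfp526 had 54.1, but the gene Dedd2 overlaps its window on the PROMPT strand, so reads of Dedd2 and of the PROMPT cannot be told apart there.

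PROMPT levels were related to gene levels, and the correlation with genes of all levels was lower than in other genes. Over the 333 zinc finger genes with a gene baseMean of at least 1, the Spearman correlation of PROMPT and gene baseMean was 0.308, compared with 0.470 over 14065 other genes. With the gene level per kb of gene span it was 0.458, compared with 0.638. The sets span different ranges of gene level, and at a gene baseMean of 100 or more the correlation was 0.214 for 305 zinc finger genes and 0.231 for 9828 others, so that most of the gap was gone. These correlations are across genes, the points of a table share all 18 libraries, and genes are not independent replicates. Among genes at 1000 to 10000 the median PROMPT was 1.27 for zinc finger genes (n = 173, interval 0.803 to 2.12) and 3.07 for the others (interval 2.86 to 3.26). At 100 to 1000 it was 0.749 (n = 107, interval 0.484 to 1.13) compared with 1.13 (interval 1.01 to 1.28). At 10000 or more the medians were 2.96 (n = 25, interval 1.17 to 13.5) and 4.28 (interval 3.52 to 5.26), with overlapping intervals, and the share of PROMPTs at 1 or more was 76.0% and 70.6%.

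**Figure D2:**
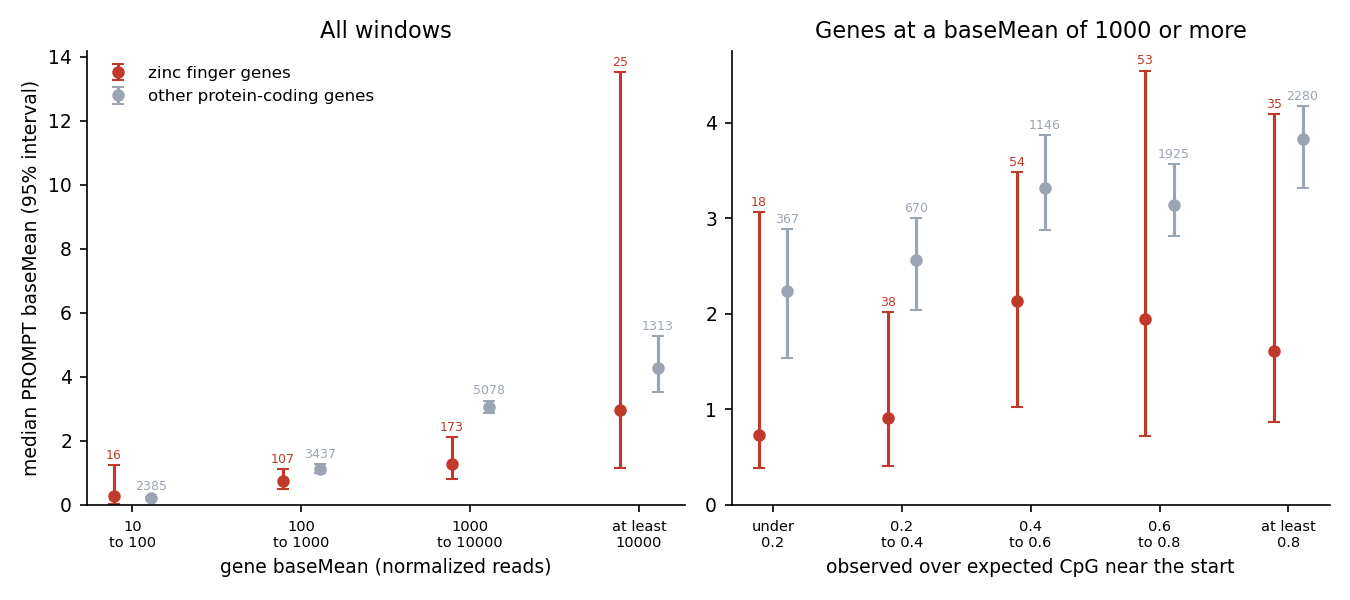
Median PROMPT baseMean (points) with its 95% interval (bars) for zinc finger genes (red) and other protein-coding genes (grey), by gene baseMean over all windows (left) and by observed over expected CpG in the 300 bases nearest the start for genes with a baseMean of at least 1000 (right). The small numbers are the genes in each bin, and at a gene baseMean of 1000 to 10000 the red point lies at 1.27 and the grey at 3.07.

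The direction of the comparison depended on whether the gene level was held in range. Zinc finger genes had higher gene levels, with a median gene baseMean of 1275 (interval 1068 to 1578) compared with 211.7 (interval 192 to 235) in the others. Where the gene baseMean was at least 100, the share of PROMPTs at 1 or more was 53.1% of 305 zinc finger genes, below the 63.2% of 9828 others, although the order was turned at 10000 or more. Over all genes it was higher, at 49.1% and 42.6%. The median ratio of PROMPT to gene baseMean was 0.0843% (interval 0.0634 to 0.121%) for zinc finger genes and 0.178% (interval 0.167 to 0.187%) for the others. Per kb of gene span it was 1.47% (interval 1.18 to 2.24%) compared with 4.82% (interval 4.56 to 5.10%). The median spans of the full sets were 17.9 and 18.6 kb. The ratios leave out genes under a baseMean of 1, and spans were not compared for the genes that remain. The part of gene span in the gap between the sets was therefore not tested. The PROMPT and gene tables were normalized separately, so a ratio is not a share of transcription. The raw ratio also does not allow for gene length, so the order of genes can change per kb of span. Zfp704 had a raw ratio of 0.890% and Zfp446 one of 7.31%, but per kb of span they had 163% and 57.5%. PROMPTs and genes were also ranked separately, among the pairs of a PROMPT and a protein-coding gene only. The median zinc finger PROMPT stood at percentile 56.1 and the median gene at 66.4. In 63.2% of the zinc finger pairs the PROMPT had the lower percentile, compared with 49.2% of other pairs.

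**Figure D3:**
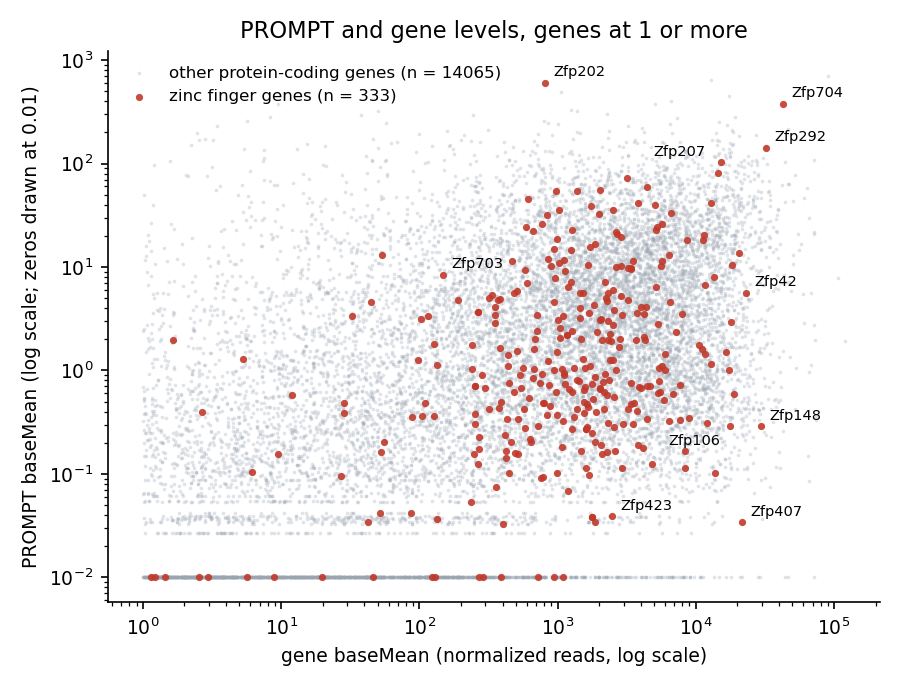
PROMPT baseMean (y axis) against gene baseMean (x axis), both in normalized reads on log scales, for 333 zinc finger genes (red) and 14065 other protein-coding genes (grey) with a gene baseMean of at least 1. PROMPTs without reads are drawn at 0.01, and genes of like level spread widely, as with Zfp704 at 379 and Zfp148 at 0.289.

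Genes in the same range of baseMean had very different PROMPTs. Of the 25 zinc finger genes with a baseMean of at least 10000, 9 had a PROMPT of at least 10 and 6 had one under 1. The baseMean does not allow for gene length, and per kb of span these genes were not alike. For example, Zfp42 had 1948 per kb and Zfp827 had 69.2. Zfp407, on chromosome 18, had a PROMPT of 0.0343 beside a gene level of 21614. No RefSeq start was found within 100 bases of the start used for Zfp407, so its window may not be that of the main promoter. Zfp148, which encodes a GC-rich element binding factor, had 0.289 beside 29502, and another gene (1700007L15Rik) is annotated on the PROMPT strand of its window. Zfp106 had 0.290 beside 17802, with no such neighbour and with a RefSeq start 16 bases from the start used. Zfp644 had 0.101 beside 13875, but its nearest RefSeq start lay 457 bases away, so the window may not be that of the main promoter.

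The raw ratios named next do not allow for gene length. The genes with the highest ratios, among those at 100 or more, were Zfp202 (75.0%), Zfp446 (7.31%), Zfp703 (5.68%), Zfp526 (5.56%), Zfp128 (4.06%) and Zfp619 (3.94%). At the other end, 8 genes at 100 or more had no PROMPT read. The 6 with the highest gene levels were Zfp97 (1089), Zfp948 (949), Zfp934 (720), Zfp866 (388), Zfp775 (288) and Zfp993 (272). Of these, Zfp97 and Zfp993 had windows with 0% and 2.16% unique sequence by the measure given below, whereas Zfp948 and Zfp775 had 98.1% and 100%. The Zfp934 window was 37.7% unique, and Zfp935 overlaps that gene on its strand. The nearest RefSeq start lay 16267 bases away for Zfp866 and 98112 for Zfp993. Atp13a1 and Gm26573 are annotated on the PROMPT strand of these 2 windows. No PROMPT read was counted for 26 members in all, 9 of which had a gene baseMean under 1.

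The 5 zinc finger genes linked to ES cells that had a PROMPT in the table all had one above 1, compared with 49.1% of all 348 and with 19 of the 25 zinc finger genes at 10000 or more. The median gene level of these 5 was 15095. Zfp42 (Rex1), a marker of naive pluripotency, had a PROMPT of 5.66 beside a gene level of 23221. Zfp462, which restrains differentiation, had 10.4, Zfp219 had 10.2 and Zfp217 had 1.17, while Zfp207 is given above. Gm49086 is annotated on the PROMPT strand of the Zfp219 window, and the nearest RefSeq start to that of Zfp217 lay 5428 bases away. The median PROMPT of the 5 was 10.2, within the interval of the median at 10000 or more (1.17 to 13.5). Zfp143, Zfp281, Zfp296 and Zfp322a, also on that list, had no PROMPT in the table.

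The 8 KRAB genes linked to imprints or retroelements had 4 PROMPTs at 1 or more, a share close to the 49.1% of all 348, and a median of 1.78. Zfp57, which protects methylation at imprinted loci, had a PROMPT of 6.68 beside a gene level of 11558. Zfp445, which acts at imprints with Zfp57, had 0.607 beside 5319. Zfp809, which silences proviral DNA in ES cells, had 25.7 beside 5654. Zfp568, a repressor of a placental Igf2 transcript, had 2.95 beside 18032. Zfp961 had 81.3, and the lowest were Zfp708 at 0.474, Zfp989 at 0.164 and Zfp932 at 0.0684. The Zfp708 gene was listed at 0 and overlaps other genes on its strand. By the measure given below, the Zfp989 window was 8.04% unique and the Zfp932 window 54.4%. Gm26573 and 1010001B22Rik are annotated on the PROMPT strand of these windows. No RefSeq start was found for Zfp989 or Zfp568.

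Genes for RNA-binding zinc finger proteins differed among themselves. Zfp346, which binds double-stranded RNA, had a PROMPT of 13.1 and Zfp326 had 6.39. Zfp106 had 0.290 and Zfp638 had 0.168, although their gene levels (17802 and 8314) were above those of Zfp346 (6416) and Zfp326 (5137). The nearest RefSeq start to the Zfp638 start lay 47244 bases away. Of the CCCH family, whose members bind AU-rich elements and promote mRNA decay, Zfp36l1 had a PROMPT of 4.09 and Zfp36l3 of 0.156, while Zfp36 and Zfp36l2 had none in the table.

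Lineage and neural regulators had low PROMPTs, with a median of 0.163 over 9 genes whose median gene level was 148. Zfp703 (8.43) and Zfp365 (2.02) were above 1, so that 2 of 9 were, compared with 49.1% of all 348, 44.9% of those with a gene level of 100 to 1000 and 25.0% of those at 10 to 100. Zfp503 had 0.486, Zfp536 had 0.353, Zfp804a had 0.163 and Zfp521 had 0.157. Zfp423, a regulator of neural and adipocyte development, had 0.0393 beside a gene level of 2463. Zfp804b and Zfp488, the latter a gene of oligodendrocytes, had no PROMPT read. The nearest RefSeq start lay 3889 bases from the start used for Zfp536, 436 for Zfp804a and 378 for Zfp804b. For Zfp521 and Zfp703 none was found, so the windows of these genes may not be those of the main promoters. For Zfp365, Zfp503, Zfp423 and Zfp488 it lay at the start used.

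Only uniquely aligned reads were counted, and many zinc finger windows hold sequence that occurs more than once in the genome. As a measure, each 1000-base window upstream of a start was cut into 31-base words and the share found once in GRCm38 was taken. This share was at least 95% in 51.4% of zinc finger windows and in 65.2% of other windows, and under 50% in 12.9% (45 windows) and 7.15%. The median PROMPT was 0.307 in the 45 windows under 50% (interval 0.156 to 0.749) and 1.02 in the 179 at 95% or more (interval 0.710 to 1.45). Of the 9 windows with no unique word, 8 had no PROMPT read and 1, that of Zfp781, had a baseMean of 4.84. Within windows at 95% or more, zinc finger genes at 1000 to 10000 had a median PROMPT of 1.29 (n = 94, interval 0.894 to 2.35) and others one of 2.75 (interval 2.50 to 2.98).

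**Figure D4:**
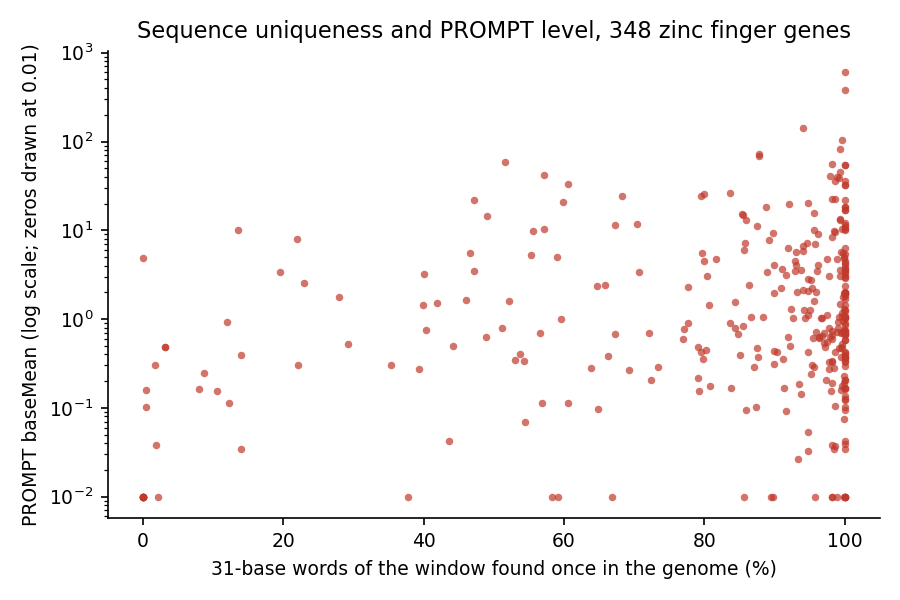
PROMPT baseMean (y axis, log scale, zeros drawn at 0.01) of the 348 zinc finger genes against the share of 31-base words of the 1000-base upstream window that occur once in the genome (x axis, percent). At the left edge 8 of the 9 windows with no unique word lie at 0, while windows near 100% span the whole range up to 607.

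Apart from Zfp617 and Zfp882, the members that shared most words with another member lay on chromosomes 2, 4 and 17. Zfp965 and Zfp973 on chromosome 2 show the extreme case, since their windows were the same at all 1000 bases. Their first 150 bases on the PROMPT strand, at chr2:175469835-175469984 (- strand) and chr2:176670372-176670521 (- strand), are shown to make this visible, and hold no CpG.
Zfp965: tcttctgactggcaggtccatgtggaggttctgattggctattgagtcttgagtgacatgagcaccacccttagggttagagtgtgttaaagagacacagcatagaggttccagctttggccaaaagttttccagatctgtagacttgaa
Zfp973: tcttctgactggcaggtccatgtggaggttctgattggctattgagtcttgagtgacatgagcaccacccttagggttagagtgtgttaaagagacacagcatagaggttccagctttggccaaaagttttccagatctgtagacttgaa

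Both of these PROMPTs had no reads, as had those of Zfp966, Zfp967, Zfp968, Zfp968-ps and Zfp969 on the same chromosome. The gene levels were also low, at 123 for Zfp973, 1.44 for Zfp966, 1.14 for Zfp967, 0 for Zfp969 and under 1 for Zfp965, Zfp968 and Zfp968-ps. The near copies Zfp978 and Zfp979 had 0.0385 and 0.301, and Zfp955a and Zfp955b had 0.159 and 0.102. The parts of repeated sequence and of weak gene transcription in these low PROMPTs were not tested. The windows of Zfp617 and Zfp882 share sequence for another reason, as their annotated starts lie 27 bases apart. Their PROMPTs, at 7.21 and 15.1, come from nearly the same stretch, and how reads were divided between them is not known.

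Chromosome 7 held 82 of the PROMPTs and chromosome 17 held 42. The median PROMPT was 1.48 on chromosome 7 (interval 0.838 to 2.96), 1.11 on chromosome 17, 4.45 on chromosome 8 (n = 24, interval 0.771 to 9.46) and 0.325 on chromosome 4 (n = 26, interval 0.164 to 1.10). The median share of unique words was 41.8% in the chromosome 4 windows and 95.5% in those of chromosome 7, and its part in the difference was not tested. The 199 genes within 100 kb of another zinc finger gene had a median PROMPT of 1.03 (interval 0.735 to 1.76), compared with 0.737 (interval 0.528 to 1.27) in the other 149. A KRAB-like pattern in the longest reading frame, found in 168 genes, went with a median of 0.926 (interval 0.624 to 1.45), compared with 0.868 (interval 0.672 to 1.49) in 179 without, with overlapping intervals. The pattern can miss KRAB genes, since Zfp708, listed above as one, lacked it, so the 2 groups are not a clean division.

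Another gene was annotated on the PROMPT strand of the window in 65 of 348 zinc finger genes (18.7%) and in 11.5% of other genes. The zinc finger PROMPTs with such a neighbour had a median of 0.590 (interval 0.327 to 0.737), and the 283 without one had 1.10 (interval 0.802 to 1.69). In other genes the order was the opposite, 0.786 with and 0.524 without, but their median gene levels also differed, at 1525 with and 134 without. In zinc finger genes the median gene levels were 2103 with and 1124 without. A higher gene level lowers the PROMPT to gene ratio. Relative to the gene the order was the same in both sets, with median ratios of 0.0192% with and 0.126% without in zinc finger genes, and of 0.0509% and 0.214% in others. The neighbour was protein-coding in 21 zinc finger windows. Per the description deposited with the tables, PROMPTs near other protein-coding transcripts of Gencode vM25 were left out, so the windows drawn here on vM21 may differ from theirs at such genes.

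Over genes of all levels, zinc finger PROMPTs differed less with CpG content than other PROMPTs. Among genes at a baseMean of 1000 or more, the bins were too small to judge this. The ratio of observed to expected CpG in the 300 bases nearest the start had a median of 0.521 in zinc finger genes and 0.433 in others. From the windows under 0.2 to those of at least 0.8, the median PROMPT went from 0.587 (interval 0.246 to 2.35) to 1.09 (interval 0.673 to 4.01) in zinc finger genes, and from 0.0533 (interval 0.0394 to 0.0610) to 2.37 (interval 2.06 to 2.64) in others. The Spearman correlation with PROMPT level, over genes at 1 or more, was 0.0701 and 0.279. Among zinc finger genes at 1000 or more, the medians at these ends were 0.735 (n = 18, interval 0.391 to 3.07) and 1.61 (n = 35, interval 0.868 to 4.09). These intervals overlap, and the highest median, 2.13, was in the bin of 0.4 to 0.6. In others the ends were 2.24 (interval 1.54 to 2.89) and 3.84 (interval 3.32 to 4.18). Whether the step differs between the sets at this gene level cannot be told from these bins.

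Short signals that act on upstream transcripts were also counted on the PROMPT strand. AATAAA, the polyadenylation signal, lay in 49.7% of the zinc finger windows (interval 44.3 to 55.1%) and in 42.4% of other windows. GGTAAG, a strong 5′ splice site sequence, lay in 15.5% (interval 11.9 to 19.8%) and 14.0%. At genes of 1000 or more, zinc finger PROMPTs with and without AATAAA had medians of 1.45 and 1.49, with intervals of 0.737 to 2.35 and 0.894 to 3.03.

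Promoters of zinc finger genes differed from others in several short motifs. RefSeq promoters of GRCm38, 300 bases from 250 before the start, were found for 285 of the 348 genes (344 promoters) and searched on both strands. A gene can have more than 1 promoter here, and the intervals of the shares treat promoters as independent. The ETS motif CCGGAAG occurred in 20.3% of them (interval 16.2 to 25.0%), in 10.4% of other protein-coding promoters and in 8.86% of all 32851 promoters. The CCAAT box, searched as CCAAT, occurred in 47.7%, 37.8% and 37.4%. ACTACAATT, part of the motif bound by ZNF143, occurred in 3.20%, 0.466% and 0.393%. AAGATGGCG, a YY1 motif that can overlap the end of CCGGAAG, occurred in 2.33% (interval 1.01 to 4.53%), 1.60% and 1.40%. The GC box GGGCGG occurred in 43.0% (interval 37.7 to 48.4%), 45.9% and 35.7%. For the YY1 motif and the GC box, the interval held the value of other protein-coding promoters. The TATA box TATAAA occurred in 7.27%, 13.1% and 13.6%. Zinc finger genes with CCAAT had a median PROMPT of 1.61 (n = 148, interval 0.906 to 3.18) and those without had 0.703 (n = 137, interval 0.549 to 1.02), with overlapping intervals. With and without the ETS motif it was 1.02 and 0.941, with and without the GC box 0.749 and 1.17, with and without the TATA box 1.51 and 0.930, and with and without ACTACAATT 0.972 and 1.01. The 8 genes with AAGATGGCG had a median of 11.2 (interval 0.190 to 143), compared with 0.930 without. These matches describe letters in the promoter and not binding.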

How the data were processed

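TT-seq of E14 ES cells gave 18 libraries in 6 groups of 3. Reads were trimmed (Trim Galore), placed on mm10 by STAR with unique alignments only, assigned to features by strand (featureCounts) and normalized in DESeq2 by the authors, who set no filter on expression. They deposited 4 tables, and 2 were used, those of PROMPTs and of genes. The baseMean is the signal the authors deposited, the mean normalized count over all libraries, as per the file headers. The 4 other value columns of each table hold the authors' own comparison of conditions (log2 fold change, its standard error, p-value and adjusted p-value) and were not used, so depth and spread per library were not analysed here. PROMPTs, defined by the authors as antisense transcripts within 1 kb upstream of a start of Gencode vM25, were paired with genes by symbol.

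Gene positions came from GENCODE vM21 and sequence from GRCm38. The 1000-base windows, 31-base words, CpG ratios, motifs, neighbours and reading frames (at least 2 C2H2 patterns for the membership alternative) were computed with Python 3.11.15, numpy, pandas and scipy. Medians have binomial order-statistic intervals and shares exact binomial intervals, both at 95%, tested on simulated data. The PROMPTs named are the 12 highest, the 6 highest and lowest ratios at a gene baseMean of at least 100, the 6 highest genes without PROMPT reads, and the members of 5 gene lists. Zfp148, Zfp407, Zfp644, Zfp655 and the copies were named after their values were seen. The members and lists were chosen with earlier results of these data known.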

Additional observations from a re-analysis of the deposited data

How the results depend on the processing

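No paired analysis was possible because the values used are means over all libraries, and for the same reason leaving out single replicates was not run. The planned choice of members by a RefSeq protein table was not run, and reading frames of GENCODE transcripts were used instead. That alternative, and those on unique windows, RefSeq starts, gene span, overlapping genes and the correlation at a gene baseMean of at least 100, were chosen after seeing the data.

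The share of PROMPTs with a baseMean of at least 1 (49.1%) was 16.1% with a limit of 10 and 92.5% for any reads, and stayed within its interval under the other 6 alternatives (48.8 to 53.7%). The median of PROMPTs with reads (1.06) was 4.70 among those at 1 or more and stayed within its interval under the other 7 (0.915 to 1.49). The median PROMPT to gene ratio (0.0843%) was 1.47% per kb of gene span, 0.426% per kb of exon, 19.5% with both tables scaled to the same sum and 0.126% without a gene on the PROMPT strand. As a difference of percentile ranks it was -8.95 points. The first 3 settings change the scale by construction, and for the neighbours the cause was not tested. In that last subset other genes had 0.214%, so that zinc finger genes kept the lower ratio. The correlation of PROMPT and gene levels (0.308) was 0.176 where both were at least 1, 0.145 where both were at least 10 and 0.458 per kb of gene span, the cause of which was not tested. At a gene baseMean of at least 100 it was 0.214, beside 0.231 in other genes, so the gap to other genes (0.470 over all levels) depends on the range of gene levels. The counting error of weak PROMPTs limits every order among those under a baseMean of 1.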
